A study of Rattus norvegicus with 8 samples.

Results

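The genes described here encode receptor protein tyrosine phosphatases, membrane proteins that remove phosphate from tyrosine residues of their substrates. They were chosen as a named list of 8 genes (Ptprt, Ptprd, Ptprf, Ptprs, Ptprk, Ptprm, Ptpru and Ptpro), of which 7 were measured among 17168 listed genes and 1, Ptprd, was not analysed here. The list was built around Ptprt, which had been picked out because it differed between the groups in these same libraries. The difference between groups in the members is therefore given as a description, and nothing is inferred from it. RNA was sequenced from medial prefrontal cortex homogenate of male Sprague-Dawley rats, with 4 libraries from rats of high motor impulsivity (HI) and 4 from rats of low motor impulsivity (LI). HI rats were the upper quartile and LI rats the lower quartile of premature responses in a 1-choice serial reaction time test, where responding before the cue counts as premature. The labels name no drug, genotype or age, and leave unstated whether each library comes from its own animal. Apart from Fisher's exact test, p-values therefore treat the libraries as the units, and these need not be separate animals.

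Receptor tyrosine phosphatases pair an adhesion-like extracellular part with cytoplasmic phosphatase domains and oppose tyrosine kinases at cell contacts. The R2B class (Ptprt, Ptprk, Ptprm and Ptpru) carries a MAM domain; Ptprt, Ptprk and Ptprm bind the same molecule on neighbouring cells and associate with cadherin and catenin complexes, and Ptprt is found mainly in the nervous system. The R2A or LAR class (Ptprf, Ptprs and Ptprd) sits on axons and presynaptic terminals, where it binds postsynaptic adhesion proteins and proteoglycans and recruits liprins. Ptpro belongs to the R3 class and is known from kidney podocytes and from growing axons.

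The sequences before the annotated gene start are shown for Ptprt, the member around which the list was built, and for Ptprs, Ptprf, Ptpru and Ptprm, whose levels moved together or in opposite directions across the 8 libraries. Each is the 250 bases upstream of the start in RefSeq on rat assembly GRCr8, read 5′ to 3′ along the gene's strand. No label or header names the genome build behind the expression values, so the annotated start need not be the one used in these samples. RefSeq gave a start for 7 of the 8 listed members, Ptprd included. Capitals mark matches, on either strand, to the cyclic AMP response element TGACGTCA, the GC box GGGCGG, the E box CACGTG and the TATA box TATAAA.
Ptprt, chr3:171707693-171707942, minus strand: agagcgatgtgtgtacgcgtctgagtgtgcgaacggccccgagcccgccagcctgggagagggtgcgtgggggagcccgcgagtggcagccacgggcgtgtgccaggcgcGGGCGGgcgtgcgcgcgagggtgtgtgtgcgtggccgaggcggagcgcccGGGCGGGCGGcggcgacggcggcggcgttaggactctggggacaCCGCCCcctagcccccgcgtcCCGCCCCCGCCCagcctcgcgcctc
Ptprs, chr9:1394092-1394341, minus strand: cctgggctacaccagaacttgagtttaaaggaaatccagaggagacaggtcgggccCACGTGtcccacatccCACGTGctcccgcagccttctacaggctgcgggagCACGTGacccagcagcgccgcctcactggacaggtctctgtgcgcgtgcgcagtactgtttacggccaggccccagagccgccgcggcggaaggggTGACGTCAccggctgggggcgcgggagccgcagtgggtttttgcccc
Ptprf, chr5:137095427-137095676, minus strand: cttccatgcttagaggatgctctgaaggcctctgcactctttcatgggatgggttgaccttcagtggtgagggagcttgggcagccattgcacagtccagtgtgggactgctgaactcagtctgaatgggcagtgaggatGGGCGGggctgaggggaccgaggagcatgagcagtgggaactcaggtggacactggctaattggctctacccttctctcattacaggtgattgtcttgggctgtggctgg
Ptpru, chr5:149308834-149309083, minus strand: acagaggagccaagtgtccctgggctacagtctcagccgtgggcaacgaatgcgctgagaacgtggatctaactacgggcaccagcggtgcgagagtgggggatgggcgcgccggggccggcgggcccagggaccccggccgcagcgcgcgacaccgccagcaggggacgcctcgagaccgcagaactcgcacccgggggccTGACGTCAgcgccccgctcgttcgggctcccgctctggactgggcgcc
Ptprm, chr9:114790478-114790727, minus strand: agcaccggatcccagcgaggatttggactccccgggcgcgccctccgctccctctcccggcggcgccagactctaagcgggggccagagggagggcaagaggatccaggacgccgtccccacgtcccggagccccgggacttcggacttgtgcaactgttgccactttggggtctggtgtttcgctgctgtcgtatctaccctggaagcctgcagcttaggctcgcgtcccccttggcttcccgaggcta

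The upstream window of Ptprt was 78.4% G and C, against a median of 51.2% over all 33469 windows of that length, and held 6 GC box matches, with matches that overlap counted separately. At least 1 GC box match was present in 30.5% of all windows. Both Ptprs and Ptpru held 1 cyclic AMP response element, beginning 47 bases before the start in Ptprs and 48 bases before it in Ptpru; 1.59% of all windows held that motif. Ptprs also held 3 E boxes, a motif found in 5.59% of windows. The Ptprf window held 1 GC box and no cyclic AMP response element. The Ptprm window held no match to any of the 4 motifs. The TATA box letters, present in 12.9% of windows, were in none of the 5 windows shown. These matches describe letters in the windows and are not evidence of binding.

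The libraries held between 7354416 and 9476656 counts. Ribosomal RNA took between 0.406% and 25.5% of counts in HI libraries, with HI2 the highest, and between 0.418% and 6.42% in LI libraries. For each library, the log2 CPM of every gene minus its mean over the 8 libraries was regressed on log2 transcript length. This length slope, which is relative to the other libraries, was highest in HI4, at 0.13, and lowest in LI1, at -0.08. Summed striatal markers stood at 692 CPM in LI2 and between 266 and 315 CPM in the other 7 libraries. Neuronal markers were abundant in every library, at 6610 to 11800 CPM in HI and 6870 to 10500 CPM in LI. Fewer cells of a type and less RNA per cell cannot be told apart in homogenate.

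All 7 measured members were expressed well above the low-count filter, at levels that spanned the middle and upper part of the 11631 genes tested. Levels between genes are compared in TPM, a relative abundance that accounts for transcript length. Ptprs was the most abundant, at 229 ± 21 TPM in HI and 211 ± 28.6 TPM in LI (SD, n = 4 each), and made up 51% of the summed TPM of the 7 genes. Its lowest library, 182 TPM, lay above the highest library of every other member, so its place at the top did not depend on the library. Ptprf averaged 56.5 ± 9.21 TPM over the 8 libraries and Ptprt 45.8 ± 10.5 TPM (SD, n = 8). Ptprf exceeded Ptprt in 7 of the 8 libraries but their ranges overlapped. Ptprk averaged 41.6 ± 7.99 TPM and lay below Ptprt in 6 of 8 libraries, again with overlapping ranges. Ptprm followed at 27.8 ± 4.88 TPM, below Ptprk in every library. Ptpru averaged 21.6 ± 4.85 TPM and Ptpro 17.6 ± 11.1 TPM, and neither range was separate from that of its neighbour. In mean TPM Ptprs exceeded 92.4% of tested genes and Ptpro 37.2%.

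**Figure D1:**
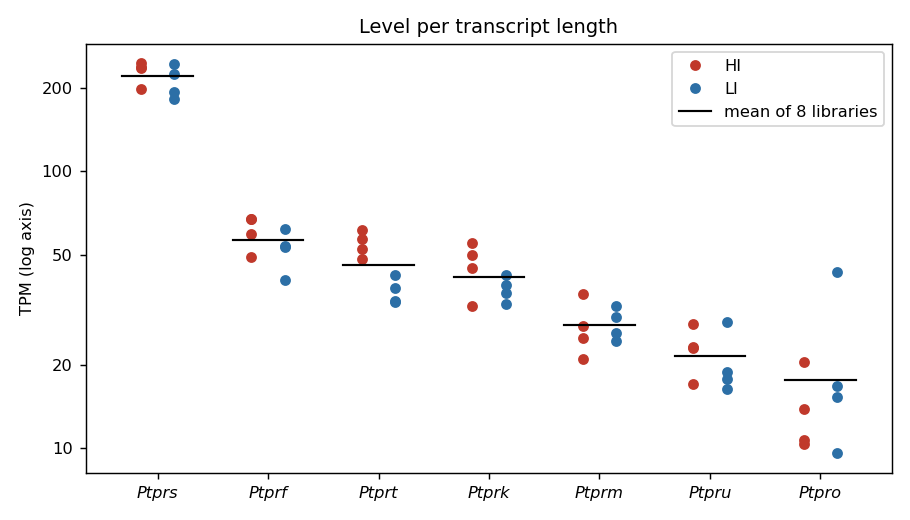
TPM (log axis) for the 7 members in order of mean level, with 4 HI libraries (left points) and 4 LI libraries (right points) per gene and a line at the mean of the 8. Ptprs lies between 182 and 244 TPM, Ptprt is the gene whose HI and LI points separate, and the highest Ptpro point, 43.4 TPM, is LI4.

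Among the R2B members, Ptprt was higher in every HI library than in any LI library. It stood at 167, 142, 147 and 156 CPM in HI1 to HI4, against 108, 114, 96.4 and 94.5 CPM in LI1 to LI4. The lowest HI library, HI2, exceeded the highest LI library, LI2, and the group means were 153 ± 10.8 CPM among HI libraries, against 103 ± 9.41 CPM among LI libraries (SD, n = 4 each). The log2 fold change was 0.57 ± 0.11 (SE, edgeR), and stayed between 0.52 and 0.62 when any 1 library was left out. Ptprt transcript also took a larger part of the summed TPM of the 7 members, 12.6%, 10.7%, 11.5% and 13.5% in HI1 to HI4, against 9.32%, 9.31%, 9.38% and 8.27% in LI1 to LI4. These shares are a description of the same Ptprt reads.

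Across all 11631 genes the quasi-likelihood test of edgeR called 0 at a Benjamini-Hochberg adjusted p of 0.1 (0% of genes), and the adjusted p of Ptprt was 1. An unadjusted p below 0.05 was reached by 484 genes, 3.07% of those tested being higher in HI and 1.09% lower. DESeq2 called 30 genes, limma-voom 0 and Fisher's exact test on summed counts 6692. In CPM the 4 HI libraries were all higher than the 4 LI libraries in 2.31% of genes and all lower in 1.14%. Among the 7 members this held for 1 gene, Ptprt, above, and for 0 below. Because Ptprt was chosen on this contrast, that count is a description.

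The Ptprt transcript, 5790 bases, was longer than that of 94.6% of tested genes, and the length slope was on average 0.0322 ± 0.067 among HI libraries, against -0.0322 ± 0.0373 among LI libraries (SD, n = 4 each, two-sided exact permutation p = 0.0857), with overlapping ranges. With that slope removed from each library the log2 fold change of Ptprt was 0.48 ± 0.12 (SE, limma). With ribosomal RNA share added as a covariate it was 0.58 ± 0.11, and without HI4 and LI3 together 0.53 ± 0.11 (SE, edgeR). Summed microglial markers separated the groups, at 225 to 273 CPM in HI and 288 to 304 CPM in LI, with 7 of 7 markers lower in HI and none at 0 in all libraries; their part in the Ptprt difference was not tested. All 7 oligodendrocyte markers also had lower fitted values in HI. The median log2 fold change was -0.55 for that list and -0.24 for the microglial list. All 6 striatal markers were lower in HI too (median -0.76), and all 4 tested fibroblast markers were higher (median 1.31). Neuronal, astrocyte, oligodendrocyte precursor and endothelial lists held genes of both signs. Over all tested genes 48.5% were higher in HI. The oligodendrocyte sums overlapped, at 2030 to 2200 CPM in HI and 1720 to 6590 CPM in LI, where LI2 held the 6590. Striatal and fibroblast sums overlapped as well. The part of all these markers in the Ptprt difference was not tested either.

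The other R2B members overlapped between the groups. Ptprk, a homophilic adhesion phosphatase cut by proteases in cell contacts, stood at 115, 73.6, 97.0 and 104 CPM in HI1 to HI4, against 80.2, 68.9, 92.0 and 82.4 CPM in LI1 to LI4. HI1, HI3 and HI4 lay above every LI library, while HI2 lay below 3 of the 4, and the log2 fold change was 0.27 ± 0.15 (SE). Ptprm stood at 62.0, 56.5, 71.2 and 90.2 CPM in HI1 to HI4, against 64.0, 64.2, 77.2 and 82.8 CPM in LI1 to LI4, with a log2 fold change of -0.04 ± 0.16. The sign of this value turned without HI1 (0.01), HI2 (0.05) or LI4 (0.03), so no direction is given for it. Ptpru stood at 56.0, 73.2, 57.1 and 41.3 CPM in HI1 to HI4, against 47.7, 68.4, 44.8 and 40.3 CPM in LI1 to LI4. The Ptpru log2 fold change was 0.18 ± 0.21, 0.04 without HI2, the highest HI library, and 0.36 without LI2, the LI library in which both Ptpru and the striatal markers were highest.

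**Figure D2:**
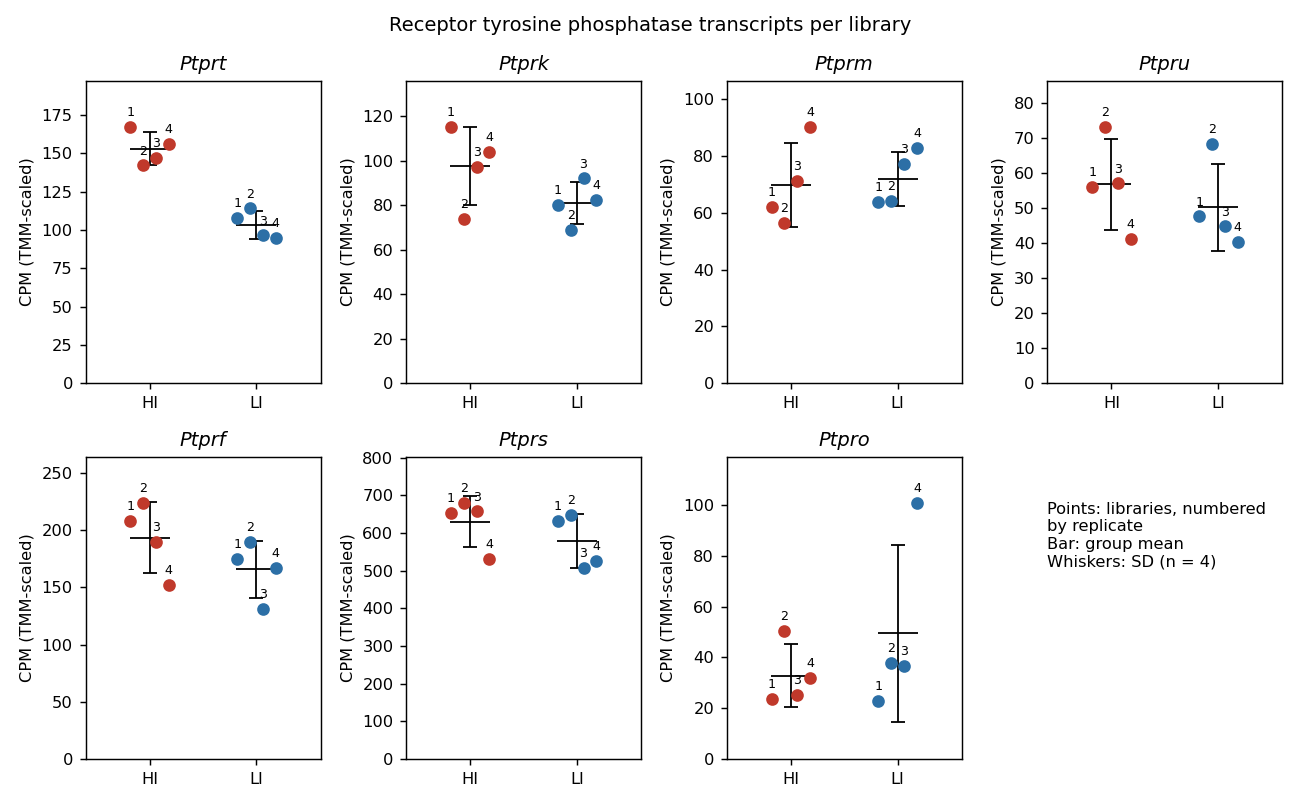
CPM, a scaled count, of each member in the 4 HI libraries (left) and 4 LI libraries (right), each point numbered by replicate, with group mean and SD. Ptprt runs from 142 to 167 CPM in HI and from 94.5 to 114 CPM in LI, the groups overlap in the other 6 genes, and LI4 stands at 101 CPM for Ptpro.

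The LAR class members were slightly higher on average in HI, within their spread. Ptprf, the original LAR phosphatase, stood at 208, 224, 190 and 152 CPM in HI1 to HI4, against 175, 190, 131 and 167 CPM in LI1 to LI4. HI4 lay below 3 LI libraries, HI3 and LI2 both round to 190 CPM with HI3 the lower, and the log2 fold change was 0.22 ± 0.15 (SE). Ptprs, a neuronal receptor for heparan and chondroitin sulfate proteoglycans, stood at 654, 680, 657 and 530 CPM in HI1 to HI4, against 632, 647, 507 and 525 CPM in LI1 to LI4. Its log2 fold change was 0.13 ± 0.13, with HI4 inside the LI range, and 0.04 ± 0.15 with the length slope removed (limma). The row used for Ptprs carries the RefSeq transcript NM_019140, which the RefSeq table assigns to Ptprs while listing Ptprd among its older names.

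Within each library, the TPM of Ptprt was also taken relative to that of Ptprs. Because Ptprt was chosen on this contrast, the ratios describe the same Ptprt reads and add no support for its difference. The log2 ratio was on average -2.07 ± 0.22 among HI libraries, against -2.51 ± 0.06 among LI libraries (SD, n = 4 each), a difference of 0.44. The lowest HI value, -2.28 in HI2, lay above the highest LI value, -2.42 in LI3. The ratios of Ptprt to Ptprf, Ptprk, Ptprm, Ptpru and Ptpro were higher on average in HI, by 0.35, 0.31, 0.63, 0.39 and 1.00 log2 units in that order, but HI and LI libraries overlapped in each.

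Ptpro differed from the rest of the list in that 1 LI library set its group difference. It stood at 23.7, 50.6, 25.3 and 31.8 CPM in HI1 to HI4, against 23, 37.9, 36.6 and 101 CPM in LI1 to LI4. LI4 held 963 reads of the transcript, whereas the other 7 libraries held between 221 and 306. The log2 fold change was -0.60 ± 0.43 (SE) over 8 libraries and 0.01 ± 0.29 without LI4. In TPM the mean of LI fell to 13.9 without LI4, against 21.3 ± 15.1 with it (SD, n = 4).

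A set of olfactory bulb genes moved with Ptpro in LI4. The set was written after the genes most like Ptpro had been seen, and it held the mitral and tufted cell genes Tbx21, Eomes, Cdhr1 and Doc2g and the interneuron genes Th, Calb2, Sp8, Dlx1, Dlx2 and Dlx5. Of the 9 that were measured, 9 were highest in LI4. Because the set was written in that order, this count is a description and nothing is inferred from it. The share of all tested genes highest in LI4 was not computed. The summed level of the 9 genes ranged from 73.1 to 150 CPM in HI and from 84.8 to 298 CPM in LI. LI4 held the 298 and the next LI library, LI2, held 124. Tbx21 had 29 reads in LI4, 1 in LI2 and 0 in the other 6 libraries, and Cdhr1 stood at 126 CPM in LI4 and between 6.82 and 64.3 CPM elsewhere. Among the neuronal markers, Gad1 alone was also highest in LI4, at 432 CPM, with LI2 next at 313 CPM. The part of these genes in the Ptpro level was not tested.

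The 5 genes whose log2 CPM was most like that of Ptpro over the 8 libraries, by Pearson correlation, were Lgr5 (0.942), Myo16 (0.940), Sall3 (0.937), Pax6 (0.937) and Peli2 (0.936). Each was highest in LI4, as in Lgr5, a Wnt pathway receptor, with 19 CPM in LI4 and between 2.71 and 6.78 CPM in the other libraries. Without LI4 the correlations were 0.793, 0.782, 0.854, 0.889 and 0.805 in the same order. Pax6, a transcription factor of olfactory bulb interneurons among other cells, stood at 22.6 CPM in LI4 and between 8.54 and 15.8 CPM elsewhere. These are the top 5 of all tested genes and carry no test.

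The genes most like Ptprt over the 8 libraries were Srgap3, Tmem56, Grin2a, Grm5 and Usp31. Srgap3, a GTPase-activating protein that acts downstream of Robo receptors, had a Pearson correlation of 0.995 with Ptprt and the same rank order of all 8 libraries. It stood at 208, 180, 183 and 199 CPM in HI1 to HI4, against 141, 150, 133 and 132 CPM in LI1 to LI4. The correlation was 0.980 for Tmem56, 0.980 for the NMDA receptor subunit gene Grin2a, 0.965 for the metabotropic glutamate receptor gene Grm5 and 0.960 for Usp31. In all 5 genes every HI library lay above every LI library, so the difference between the groups makes up much of these values. For deviations from the HI and LI means, which leave that difference out, the 5 highest were Tasp1 (0.960), Srgap3 (0.956), Gucy1a3 (0.952), Plek (0.947) and the potassium channel gene Kcna2 (0.938). Srgap3 was the 1 gene in both sets, and its within-group correlation stayed between 0.934 and 0.975 when any 1 library was left out. The range was 0.938 to 0.979 for Tasp1. Each set is the top 5 of all tested genes in these libraries, so high values follow from the choice and carry no test.

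**Figure D3:**
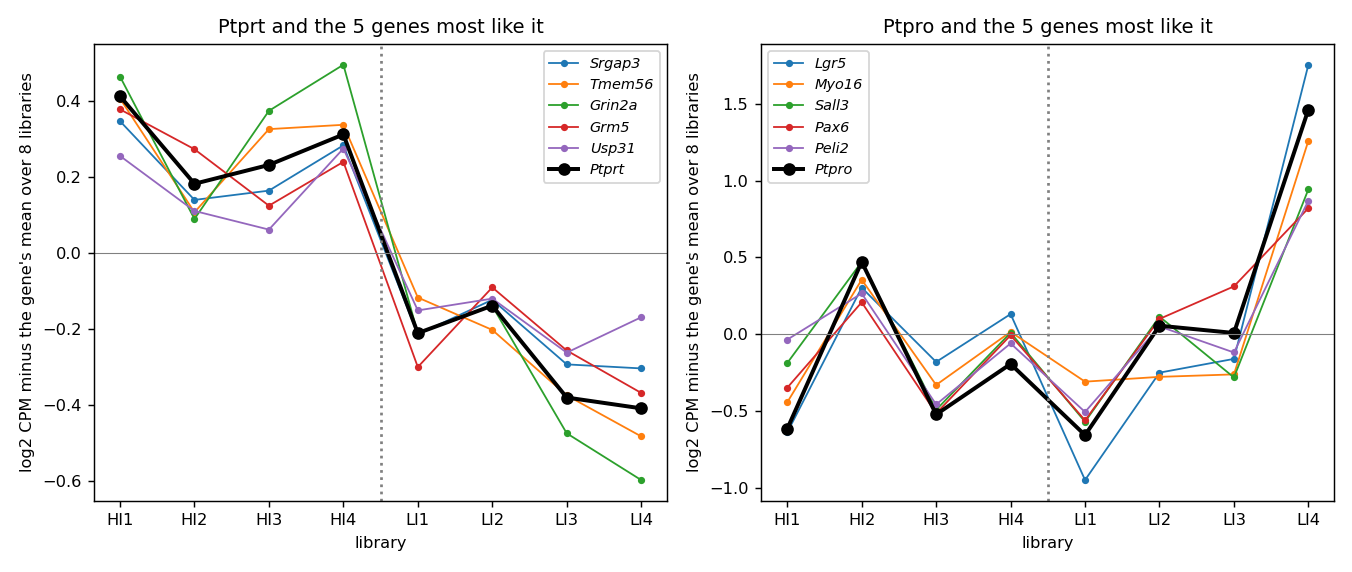
Log2 CPM minus each gene's mean over the 8 libraries for Ptprt (left panel, black) and Ptpro (right panel, black) with the 5 genes most like each; lines join libraries as a guide, since replicates have no order. The Ptprt profile divides at the dotted line between HI and LI, with Srgap3 following it at a correlation of 0.995, whereas the Ptpro profile has its peak in LI4.

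By correlation over the 8 libraries, Ptprs, Ptprf and Ptpru varied together and Ptprm in the opposite direction, in a pattern that crossed the groups. Ptprk and Ptpro were not clearly part of it. Ptprt was left out of these correlations because its values fall into separate HI and LI clusters of 4 libraries each. Among the other 6 members, Ptprf and Ptprs had a Pearson r of 0.91 over the 8 libraries (exact permutation p = 0.000198, adjusted p = 0.00297 over 15 pairs) and a Spearman rho of 0.90 (exact permutation p = 0.00456). Ptprs and Ptpru had an r of 0.85 (exact permutation p = 0.0103, adjusted p = 0.0386) and a rho of 0.86 (exact permutation p = 0.0107). Ptprm ran the other way, with an r of -0.87 against Ptprs (exact permutation p = 0.00776, adjusted p = 0.0386) and -0.85 against Ptpru (exact permutation p = 0.00987, adjusted p = 0.0386). Its rho was -0.74 against Ptprs (exact permutation p = 0.0458) and -0.79 against Ptpru (exact permutation p = 0.0279). Without the 2 libraries farthest from the median of the first gene of each pair, r was 0.86 for Ptprf with Ptprs, 0.82 for Ptprs with Ptpru, -0.92 for Ptprs with Ptprm and -0.71 for Ptprm with Ptpru. Ptprf correlated with Ptpru at 0.79 and with Ptprm at -0.78, each with an adjusted exact permutation p of 0.053. The remaining 9 pairs, all involving Ptprk or Ptpro, had adjusted p-values from 0.534 to 0.838. The share of pairs among all tested genes that correlated to such a degree was not computed, so these values describe the members alone.

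The ribosomal RNA share of the library moved with Ptpru, Ptprs and Ptprm past an adjusted p of 0.05, and with Ptprf just short of it. Ptpru had an r of 0.77 with that share (exact permutation p = 0.00201, adjusted p = 0.0121 over 6 members) and a rho of 0.86 (exact permutation p = 0.0107). Ptprs had an r of 0.66 (exact permutation p = 0.024, adjusted p = 0.048) and a rho of 0.76 (exact permutation p = 0.0368). Ptprf had an r of 0.74 (exact permutation p = 0.0344, adjusted p = 0.0516) and a rho of 0.93 (exact permutation p = 0.00223). Ptprm had an r of -0.76 (exact permutation p = 0.00717, adjusted p = 0.0215) and a rho of -0.90 (exact permutation p = 0.00456). Without HI2 and HI4, the libraries farthest from the median share, r was 0.78 for Ptpru, 0.92 for Ptprs, 0.84 for Ptprf and -0.94 for Ptprm. The part of library composition in the correlations between members was not tested. How many of all tested genes moved with the ribosomal RNA share to this degree was not computed. No trait of the members is therefore read from these correlations. With the length slope of the libraries, none of the 6 members had an adjusted exact permutation p under 0.666.

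**Figure D4:**
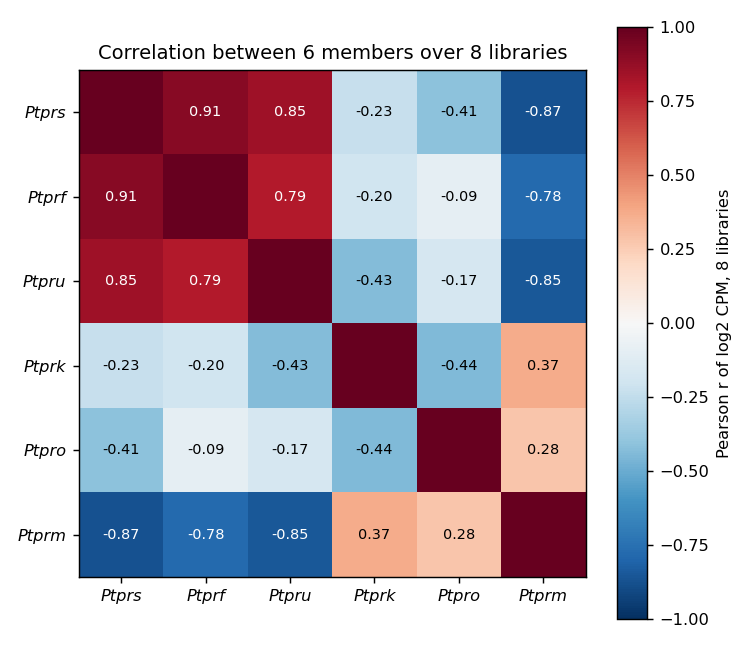
Pearson correlation of log2 CPM over the 8 libraries between 6 members. Ptprs, Ptprf and Ptpru form a block from 0.79 to 0.91, and Ptprm correlates with each of them between -0.78 and -0.87.

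Of the 13 receptor tyrosine phosphatases outside the list, 12 were measured and 10 passed the low-count filter. None passed the adjusted threshold (0 of 10, edgeR), 8 had higher and 2 lower values in HI, and the median log2 fold change was 0.09, beside -0.01 over all tested genes. In CPM the lowest HI library exceeded the highest LI library in 4 of the 10, Ptprg, Ptprj, Ptprn2 and Ptprr. The share over all genes was 2.31%. The highest HI library was under the lowest LI library in 1, Ptprv, where the share was 1.14%. In TPM Ptprg and Ptprv stayed separate, but the others overlapped. The TPM values were 61.67 in HI2 and 63.4 in LI1 for Ptprj, and 187.42 in HI2 and 192.89 in LI2 for Ptprn2. For Ptprr they were 16.86 in HI2 and 17.84 in LI2, and HI1, at 17.22, also lay below LI2. Deposited TPM counts ribosomal RNA in its total, and HI2 had the highest ribosomal RNA share, 25.5%. The part of that share in these overlaps, and in those of HI2 given below, was not tested. Ptprg, which has a carbonic anhydrase-like domain and binds contactins, stood at 67.0, 69.4, 74.2 and 97.7 CPM in HI1 to HI4, against 42.7, 55.5, 59.7 and 62.7 CPM in LI1 to LI4. Its log2 fold change was 0.48 ± 0.16 (SE), and it fell to 0.35 without HI4, the highest of the HI libraries.

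Ptprj, of the same R3 class as Ptpro, stood at 248, 226, 279 and 296 CPM in HI1 to HI4, against 225, 201, 217 and 195 CPM in LI1 to LI4. HI2 and LI1 were the closest libraries of the groups, and the log2 fold change was 0.32 ± 0.11 (SE), or 0.21 ± 0.11 with the length slope removed (limma). Ptprn2, a catalytically weak phosphatase of dense core vesicles, averaged 516 ± 31.0 CPM among HI libraries, against 456 ± 19.9 CPM among LI libraries (SD, n = 4 each), and its log2 fold change was 0.18 ± 0.09 (SE), and 0.10 ± 0.09 with the length slope removed. Ptprr, which dephosphorylates ERK kinases, averaged 30.8 ± 2.62 CPM among HI libraries, against 26.3 ± 1.79 CPM among LI libraries. Its lowest HI library and highest LI library both round to 28.5 CPM. Ptprv had 10, 1, 5 and 4 reads in HI1 to HI4, against 14, 29, 14 and 19 reads in LI1 to LI4, a log2 fold change of -1.86 ± 0.48 (SE) that rests on few reads. Ptprz1, the phosphatase of glial precursors, stood at 305 ± 95.8 CPM among HI libraries, against 303 ± 54.7 CPM among LI libraries.

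**Figure D5:**
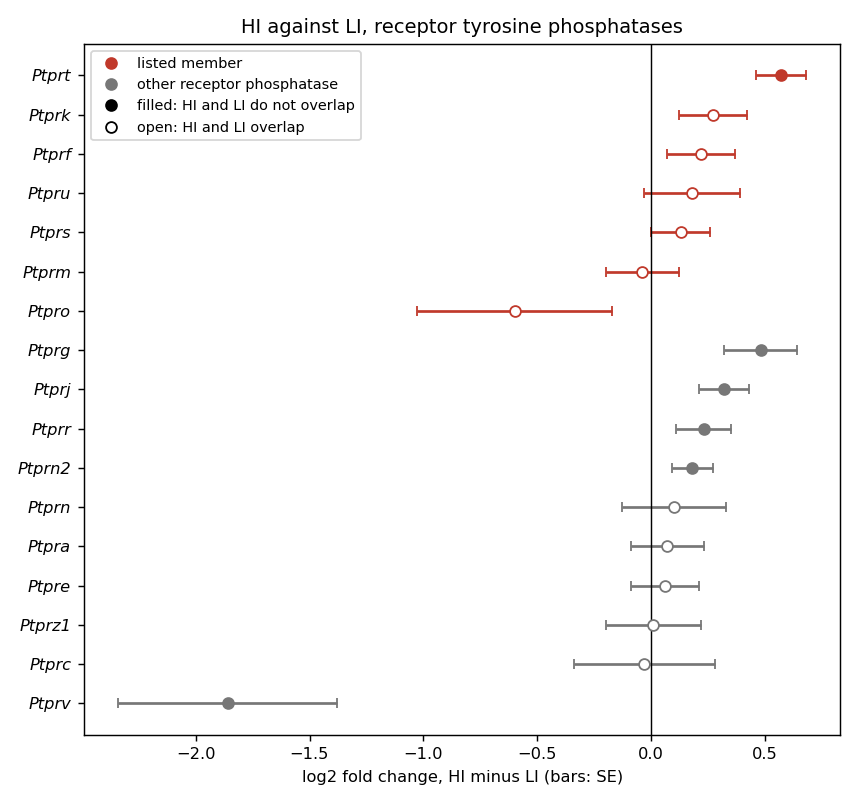
Log2 fold change of HI minus LI with SE for the 7 members (top, red) and the 10 other tested receptor tyrosine phosphatases (bottom, grey). Points are filled where HI and LI libraries do not overlap in CPM. Ptprt at 0.57 is the filled member, and the filled points below it are Ptprg, Ptprj, Ptprr and Ptprn2 to the right of 0 and Ptprv, at -1.86, to the left.

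Cytoplasmic phosphatases showed no separated gene. Of 13 tested genes of the Ptpn group 10 had higher and 3 lower values in HI (median log2 fold change 0.15), and 0 had separate HI and LI libraries. Over all tested genes 48.5% had a log2 fold change above 0, and 2.31% were separate with HI above and 1.14% with HI below; the counts of this list and of those that follow stand beside these shares. The one with the smallest p was Ptpn14, a regulator of the Hippo pathway effector Yap, at 12.2 ± 1.57 CPM among HI libraries, against 8.82 ± 2.46 CPM among LI libraries (SD, n = 4 each), and its log2 fold change was 0.46 ± 0.22 (SE).

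Known partners of the LAR class were read from lists chosen by function, with earlier results of these data known. Of 12 postsynaptic ligand genes, 8 had higher values in HI and 4 lower (median log2 fold change 0.15), beside 48.5% higher over all genes. Separate libraries were found in 1, beside 2.31% over all genes, and in 3 without HI2, where the share over all genes was 3.71%. That 1 gene, Ntrk3, the neurotrophin receptor that also binds Ptprs across the synapse, stood at 56.4 ± 6.85 CPM among HI libraries, against 43.1 ± 5.52 CPM among LI libraries (SD, n = 4 each). Its lowest HI library, 49.1 CPM in HI2, lay just above its highest LI library, 49.0 CPM in LI2. In TPM the groups overlapped for Ntrk3, at 35.96 in HI2 and 39.53 in LI2. The Slitrk1 to Slitrk5 genes had log2 fold changes between 0.09 and 0.32, and Slitrk6, with 5 to 27 reads a library, was at -0.65 ± 0.56 (SE); HI and LI libraries overlapped in all 6. Of 13 proteoglycan genes, 6 had higher values in HI and 7 lower (median -0.05), with 0 separate. Among them Gpc3, a glypican, had the smallest p, at 16.7 ± 7.59 CPM among HI libraries, against 9.32 ± 2.95 CPM among LI libraries, a log2 fold change of 0.85 ± 0.34 (SE), or 0.52 without HI1. HI1, the highest library for Gpc3 at 26.6 CPM, also held 462 CPM of summed fibroblast markers, whose range was 54.2 to 462 CPM in HI and 39.7 to 114 CPM in LI, with none of the 5 markers at 0 in all libraries. Their part in the Gpc3 value was not tested.

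Among 10 cytoplasmic partners of the LAR class, 7 had higher values in HI and 3 lower (median log2 fold change 0.12), beside 48.5% higher over all genes. The liprin-beta gene Ppfibp1 was the 1 with separate libraries, at 70.4, 70.1, 59.5 and 78.0 CPM in HI1 to HI4, against 55.1, 47.2, 58.4 and 55.4 CPM in LI1 to LI4. The liprin-alpha genes Ppfia1, Ppfia2 and Ppfia3, which anchor LAR phosphatases at the active zone, had log2 fold changes of 0.05 ± 0.12, 0.19 ± 0.21 and 0.05 ± 0.10 (SE). Ppfia4 was at -0.27 ± 0.19.

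Cadherin, catenin and substrate genes linked to the R2B class gave 9 higher and 2 lower values in HI among 11 tested (median log2 fold change 0.13), beside 48.5% higher over all genes. Ctnnd1, a catenin that binds the juxtamembrane part of cadherins, was the 1 with separate libraries, at 98.0 ± 8.06 CPM among HI libraries, against 85.5 ± 6.21 CPM among LI libraries (SD, n = 4 each). The Ctnnd1 libraries overlapped in TPM, at 39.2 in HI2 and 41.12 in LI2. N-cadherin, Cdh2, had a log2 fold change of 0.15 ± 0.19 (SE), and Stat3, which is a substrate of human PTPRT, of 0.13 ± 0.12. Of 8 tyrosine kinase genes that oppose these phosphatases, 6 had higher and 2 lower values in HI (median 0.05), beside the same 48.5%. Abl2 was the 1 with separate libraries, at 27.9 ± 1.72 CPM among HI libraries, against 23.8 ± 2.56 CPM among LI libraries, and the Src family kinase Fyn stood at 107 ± 2.75 CPM among HI libraries, against 104 ± 3.49 CPM among LI libraries. The Abl2 libraries also overlapped in TPM, at 14.29 in HI3 and 14.37 in LI2. None of the genes in these 5 lists or among the cytoplasmic phosphatases passed the adjusted threshold (0 by edgeR). An unadjusted p under 0.05 was reached by 1 postsynaptic ligand, 1 proteoglycan and 2 cytoplasmic partner genes, and by 0 in the other lists, beside 3.07% of all genes higher and 1.09% lower in HI at that p.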

How the data were processed

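The authors deposited 1 table per library with columns of expected counts, TPM and FPKM over 17168 genes, per the file headers; between 10.8% and 11.4% of the expected counts were not whole. The submitters' processing notes name Bowtie2 2.1.0; quantifier, genome build, annotation and use of strand are not stated in the labels or headers. Reads of overlapping, antisense or near-identical genes may therefore be split or merged. The deposited FPKM values were not used, and the deposited TPM served for levels between genes, for ratios within a library and as an alternative.

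Expected counts were rounded, scaled by TMM and filtered with filterByExpr (minimum count 10, minimum total 15) in edgeR 4.0.16 under R 4.3.3. HI was compared with LI by the quasi-likelihood test on 11631 genes with Benjamini-Hochberg adjustment and a threshold of 0.1, the alpha of the series' design text. The SE is the absolute log2 fold change over the square root of its F. Log2 CPM used a prior count of 2. limma 3.58.1 and DESeq2 1.42.0 served alternatives, as did Fisher's exact test. Fits were tested on simulated data. The members and lists were chosen with earlier results of these data known. Genes outside the members were named where HI and LI did not overlap in CPM, otherwise by the smallest p of the list. The 5 genes most like Ptprt were taken by Pearson correlation, over all libraries and within groups. Further genes given with values as examples (Ptprz1, Slitrk1 to Slitrk5, Ppfia1 to Ppfia4, Cdh2, Stat3, Fyn and the genes most like Ptpro) were chosen after their values were seen. No pair of libraries of the same group was within sampling noise, so none were merged; pairs across groups were not compared in this way.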

Additional observations from a re-analysis of the deposited data

Results flagged for a closer look

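Of 46 groups of 4 libraries examined for a library far from the others, 1 was picked out. Chance picks out about 1 in 20 groups, so 1 of 46 is fewer than chance would give and nothing is inferred from it. Abl2 stood at 19.9 CPM in LI3, while the other LI libraries lay between 25.0 and 25.1 CPM, a gap of 0.971 of the group's range. Ptpro in LI4 did not reach that level, its gap being 0.809 of the range, under the critical value.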

How the results depend on the processing

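Over 21 alternatives the log2 fold change of Ptprt was between 0.46 and 0.62, and those of Ptprf, Ptprs and Ptprk were above 0 in each. Leaving out 1 library at a time gave 0 called genes each time and 0.52 to 0.62 for Ptprt, but -0.19 to 0.05 for Ptprm and -0.88 to 0.01 for Ptpro, whose sign turned without LI4. With ribosomal RNA share added as a covariate Ptprm was at 0.08 and Ptpru at 0.00. DESeq2 called 30 genes, Ptprt among them (0.57, adjusted p = 0.00194). Fisher's exact test, which ignores the spread between libraries, called 6692 genes, Ptprt among them (0.48). Ptprt was chosen on this contrast in these libraries, so its calls are a description and nothing is inferred from them. Scaling by library size alone put the median of all genes at -0.12, against -0.01 with TMM, and the list medians at 0.05 for cytoplasmic phosphatases, 0.05 for postsynaptic ligands, -0.16 for proteoglycans and -0.07 for kinases. In Fisher's test, with a median of -0.11 over all genes, cytoplasmic phosphatases were at 0.04 and proteoglycans at -0.17. The cytoplasmic phosphatase median was 0.07 without HI4 and LI3 and 0.07 with the length slope removed. By Spearman correlation 2 of the 5 genes most like Ptprt were shared with the Pearson set. Tmem56 and Grin2a had the same rho, 0.976, and equal values were ordered by gene name, so this count depends on that order.

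Same-numbered HI and LI libraries did not pair as a rule. Their deviations correlated at 0.22, 0.54, -0.05 and 0.06 for numbers 1 to 4, and the same number was the best match for HI2 only. With the replicate block 0 genes were called and Ptprt was at 0.57 ± 0.11 (SE). The SE of every other member was smaller with the block, as in Ptpru (0.21 to 0.11) and Ptprm (0.16 to 0.1). Outside the members, that of Ptprv rose from 0.48 to 0.55. An analysis chosen after seeing the data counted separated genes without HI2, LI2, LI4, HI4, or HI4 and LI3: the share of all genes was then 3.25% to 6% above and 1.91% to 4.08% below. Leaving libraries out of the same values can only keep or raise these counts, since a separated gene stays separated. The 4 above and 1 below among the other receptor phosphatases therefore had to remain, and no further gene joined them. Counts above moved between 1 and 2 for the members (Ptprk joined without HI2, Ptprs without HI4), 1 and 3 for postsynaptic ligands, 0 and 2 for proteoglycans, 1 and 2 for cytoplasmic partners and for kinases, and 0 and 1 for cytoplasmic phosphatases, which had 1 below without LI4.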
